A study of Mus musculus with 2 samples.

Results

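The Mir10, Mir99/100 and Mir125 genes form a set of 8 related microRNA (miRNA) genes of the mouse, namely Mir10a, Mir10b, Mir99a, Mir99b, Mir100, Mir125a, Mir125b-1 and Mir125b-2. They were taken by name from the 2201 miRNA genes of the GENCODE M21 annotation. All 8 were measured, and all were among the 343 hairpins with at least 200 reads. Their reads were those of 19 to 25 nt that match the annotated hairpin exactly and in sense. The study sequenced small RNA from whole testes of C57BL/6 mice at 23 dpp (days post partum), with a Stambp-ps1+/- sample and a Stambp-ps1-/- sample. Stambp-ps1 is, by its symbol, a pseudogene of Stambp. How many animals a sample holds is not given in the sources used here. Counts per distinct sequence come as 2 tables, both listed under the Stambp-ps1-/- sample. By the word in its name, 1 is called here the KO-named and the other the het-named table, and neither is assigned to a genotype. Where values come in pairs, the KO-named table stands first. Each table is 1 library without a replicate, so no test was made, and every interval below is a 95% interval of counting error only, exact for levels, shares and ratios. PCR copies cannot be told from separate molecules in these counts.

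A miRNA gene is transcribed as a long primary RNA, from which the nuclease Drosha cuts a hairpin and the nuclease Dicer then cuts a short duplex. The strand from the left side of the hairpin is called 5p and that from the right side 3p. An Argonaute protein keeps 1 of them, and bases 2 to 8 of that strand, the seed, pair with target mRNAs, so that a strand that starts 1 base later carries another seed. The Mir10 genes lie in the Hox clusters, the gene arrays that pattern the body axis. Mir99/100 and Mir125 genes lie beside let-7 genes, which are known for their rise during differentiation.

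The mature 5p sequences of the RefSeq table (GRCm38.p6) are shown because they carry nearly all of the reads. Capitals mark the seed, and sequences that share a seed stand together.
miR-10a-5p: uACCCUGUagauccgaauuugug
miR-10b-5p: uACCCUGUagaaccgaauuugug
miR-99a-5p: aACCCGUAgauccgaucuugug
miR-99b-5p: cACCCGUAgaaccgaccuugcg
miR-100-5p: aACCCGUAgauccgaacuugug
miR-125a-5p: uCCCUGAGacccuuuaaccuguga
miR-125b-5p: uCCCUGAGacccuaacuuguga

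The 8 genes thus carry 3 seeds. Counted from the 5′ end, Mir10a and Mir10b differ by U12A alone and Mir99a and Mir100 by U16A alone, in each case outside the seed. Mir99b differs from Mir100 by C1A, A11U, C16A and C21U. Mir125b-1 and Mir125b-2 give the same 5p sequence. Of the 1679 mature mouse sequences of RefSeq, 2 hold the Mir10 seed ACCCUGU and 3 hold the Mir99/100 seed ACCCGUA. The Mir125 seed CCCUGAG is held by 5, the others being miR-351-5p, miR-6367 and miR-6394.

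The most frequent deposited reads, by their count in the tables together, are shown next, since their ends often differ from the RefSeq ends. They are in the DNA letters of the files, and capitals again mark bases 2 to 8.
Mir10b, 22 nt: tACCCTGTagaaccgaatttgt
Mir10b, start 1 base later: aCCCTGTAgaaccgaatttgtgt
Mir10a, 22 nt: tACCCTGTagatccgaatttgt
Mir10a, start 1 base later: aCCCTGTAgatccgaatttgtg
Mir99a, 21 nt: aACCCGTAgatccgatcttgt
Mir99b, 21 nt: cACCCGTAgaaccgaccttgc
Mir125a, 22 nt: tCCCTGAGaccctttaacctgt
Mir125b, start 1 base later: cCCTGAGAccctaacttgtga

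The 22-nt form of Mir10b had 814016 and 772303 reads, which was 76.0% and 78.3% of the 5p reads of Mir10b. The RefSeq form, 1 base longer, had 59517 and 42104 reads, or 5.56% and 4.27%. For Mir10a the 22-nt form had 21969 and 20744 reads. Its form with the later start shown above, also of 22 nt, had 3816 and 2977 reads. The same start with 21 nt had 3267 and 3313, so that it was the more frequent in the het-named table. In Mir100 and Mir125b the RefSeq form was itself the most frequent, with 21592 and 23158 reads for Mir100 and 12178 and 11289 for Mir125b. The top forms of Mir10a, Mir10b, Mir99b and Mir125a ended before the RefSeq end in both tables. In Mir99a the most frequent form was the 22-nt RefSeq form in the KO-named table and the 21-nt form in the het-named table.

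The tables held 54384974 and 62773871 reads of 18 to 32 nt, so that 3 reads, the limit that a count of 0 allows, are 0.0552 and 0.0478 reads per 1000000 reads (RPM). Hairpin reads of 19 to 25 nt made up 12.3% and 10.4% of them. That gap alone shifts every log2 ratio by 0.25 between the scale of all reads and the scale of hairpin reads. Reads of 18 to 20 nt were 4.08% and 7.83% of the tables. Listed marker miRNAs of germ cells (6 of 6 measured) summed to 22536 and 20612 RPM. Those of Sertoli and other somatic testis cells (5 of 5) summed to 8666 and 7449 RPM. Most of that somatic sum was Mir143, at 8201 and 7059 RPM. The log2 ratios of single markers, KO-named over het-named, ran from -0.37 to 0.57 in the germ cell list. In the somatic list they ran from -0.04 to 0.39, so not every marker of these lists followed its sum. Blood markers (3 of 4 with at least 200 reads) were at 65.5 and 44.0 RPM, the endothelial marker at 408 and 340 RPM and epithelial markers (4 of 5) at 178 and 119 RPM. No listed marker was at 0. The part of these cell types in the ratios below was not tested. In whole testis, fewer cells of a type and less RNA per cell cannot be told apart.

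Mir10b was the most abundant miRNA of both tables, and the 8 genes together held 20.0% and 20.3% of all hairpin reads. The summed level was 24614 and 20981 RPM. The between-table ratio, KO-named divided by het-named, was 1.17 (interval 1.170 to 1.176) on the scale of all reads and 0.989 on the scale of hairpin reads. The family's share of miRNA reads was thus nearly the same in the tables, while its share of all reads was higher in the KO-named table.

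Mir10b (chr2:74726070-74726137 of GRCm38, plus strand) lies in introns of Hoxd3 and Hoxd4. It was at 19697 RPM (19660 to 19734) and at 15718 RPM (15687 to 15749). It alone gave 80.0% and 74.9% of the reads of the 8 genes. The hairpin next in rank was Mir22 at 9140 RPM in the KO-named and Mir871 at 8010 RPM in the het-named table. Mir10a (chr11:96317165-96317274, plus strand) lies in the HoxB region and overlaps no other annotated gene. It was at 689 RPM (683 to 697) and 546 RPM (540 to 552), rank 36 and 37. Mir10b had 28.6 and 28.8 times as many reads as Mir10a, so their proportion was nearly the same in both.

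Mir99b (chr17:17830188-17830257, plus strand) lies in an intron of Spaca6, and Mir125a (chr17:17830812-17830879, plus strand) in an exon of that gene, which encodes a sperm protein needed for fusion with the egg. Mir99b was at 1853 RPM (1841 to 1864) and 2421 RPM (2409 to 2434), rank 13 and 10. It was the gene of the set with the second highest level and gave 59.4% and 65.3% of the Mir99/100 reads. Mir100 (chr9:41531425-41531504, plus strand) was at 824 RPM (816 to 831) and 820 RPM (813 to 827), with overlapping intervals. Mir99a (chr16:77598936-77599000, plus strand) was at 443 RPM (437 to 448) and 466 RPM (461 to 472). Mir99b thus lay above Mir100, and Mir100 above Mir99a, in both tables, and by more than counting error.

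Mir125a was at 561 RPM (554 to 567) and 533 RPM (528 to 539). Mir125b-1 (chr9:41581926-41582002, plus strand) was at 269 and 233 RPM, and Mir125b-2 (chr16:77646273-77646343, plus strand) at 278 and 244 RPM. These values split shared reads evenly between the Mir125b genes. Of their 5p reads only 359 of 23917 and 457 of 24506 had a single place, so the 5p level of each gene is uncertain. Together the pair was at 547 and 476 RPM, a little below Mir125a. Mir125b-1 also overlaps the annotated transcript Gm28119, Mir125b-2 overlaps C130023A14Rik, and Gm48742 lies over Mir100 on the opposite strand. The libraries are directional, and only sense reads were taken. Levels are reads of nearly equal length, so they were not scaled by length.

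**Figure D1:**
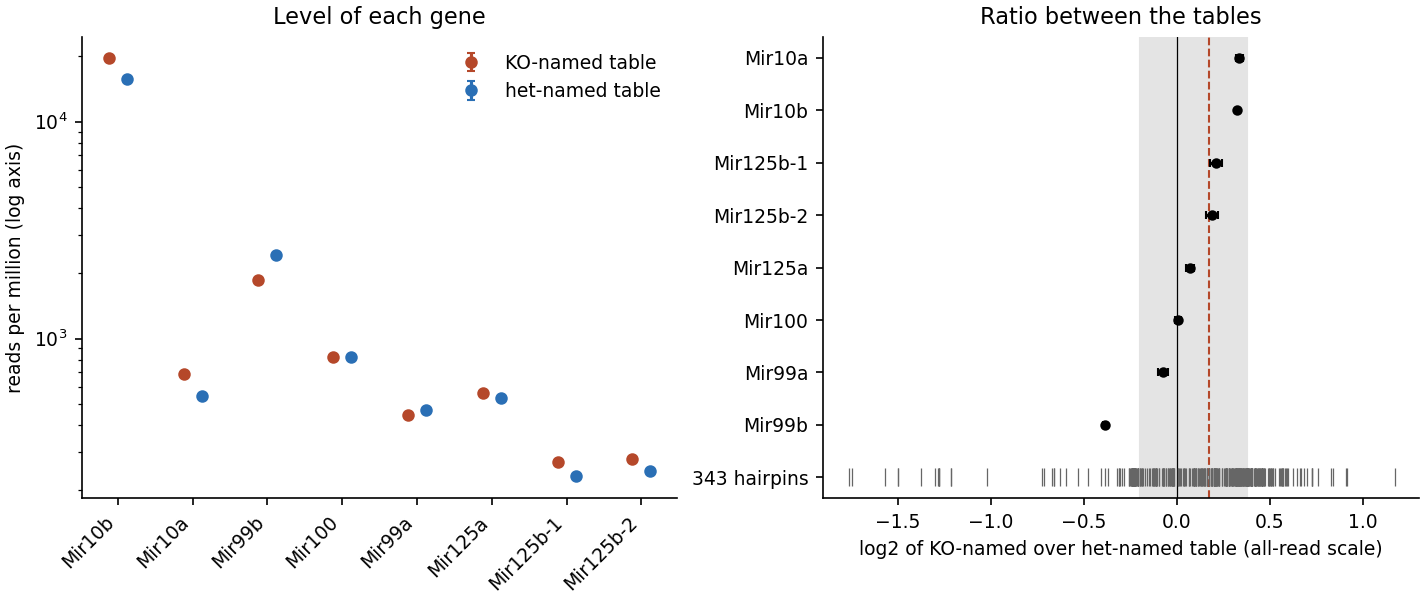
Left, level of each gene in RPM on a log axis, 1 point per table with its counting interval (smaller than most points). Right, log2 ratio of the tables (het-named as the denominator) for each gene with its counting interval, above a row of ticks for the 343 hairpins with at least 200 reads. The grey band spans the quartiles of those hairpins and the dashed line is their median of 0.17. Mir10b stands highest on the left, and Mir99b at -0.39 is the only gene left of the band.

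The Mir10 genes had a higher level in the KO-named table on both scales, and Mir99b a lower one. The Mir125 genes were slightly higher there per all reads and slightly lower per hairpin reads. Mir10a had a log2 ratio of 0.34 (0.32 to 0.36) and Mir10b of 0.33 (0.32 to 0.33), so that the intervals of the pair overlapped. Mir125b-1 had 0.21, Mir125b-2 0.19 and Mir125a 0.07. Mir100 had 0.01 (-0.01 to 0.02), Mir99a -0.07 (-0.10 to -0.05) and Mir99b -0.39 (-0.40 to -0.37). In RPM the summed ratios were 1.25 for Mir10, 1.10 for Mir125 and 0.841 for Mir99/100. In all, 6 of the 8 genes were above 0 on the log2 scale (Mir100 with an interval that includes 0), beside 61.8% of the 343 hairpins, and 2 were below 0, beside 38.2%. Their median was 0.13, beside 0.17 for all hairpins. On the scale of hairpin reads 2 of the 8 genes, Mir10a (0.09) and Mir10b (0.08), were above 0, beside 42.3% of the hairpins. A log2 size of 1 or more was reached by 0 of the 8 genes, beside 4.66% of the hairpins (0.292% upward and 4.37% downward). The order of the 8 ratios does not depend on the scale.

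Mir99b was the 1 gene below the lower quartile of all hairpins, which was -0.20 (upper quartile 0.38), and 7.29% of the hairpins had a lower ratio. Of the 212 hairpins above 0, 209 are entries with a Mir symbol. Among the 259 entries with a Mir symbol, a restriction chosen after seeing the data, 4 reached a log2 size of 1 or more. The median of the 259 was 0.29 and 80.7% were above 0. By that measure 2 of the 8 genes, the Mir10 genes, were above the median, and 9 entries lay below Mir99b. On the scale of hairpin reads Mir99b had a log2 ratio of -0.63, which is the ratio of the set farthest from 0 on either scale.

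The neighbouring miRNA genes of the same clusters were measured in the same way. Mir99b, Mirlet7e and Mir125a span 692 bases on chromosome 17. Mirlet7e, the let-7 gene between them, was at 93.6 and 87.2 RPM. The log2 ratios within that cluster were -0.39 for Mir99b, 0.10 for Mirlet7e and 0.07 for Mir125a, so that Mir99b stood apart from both genes next to it. Mir99b exceeded Mirlet7e 19.8-fold and 27.8-fold.

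On chromosome 16, Mir99a, Mirlet7c-1 and Mir125b-2 span 47408 bases in introns of the host transcript Mir99ahg, and their log2 ratios were -0.07, 0.32 and 0.19. On chromosome 9, Mir100, Mirlet7a-2 and Mir125b-1 span 50578 bases in introns of 3110039I08Rik and Gm49317, with 0.01, 0.50 and 0.21. In each of the 3 clusters the Mir99/100 gene thus had a lower ratio than the Mir125 gene. The Mir125b values on chromosomes 9 and 16 rest mostly on the same 5p reads, split between the genes, and are not separate measures. The 3p arms, which tell these genes apart, had log2 ratios of 0.42 in Mir125b-1 and 0.25 in Mir125b-2. The let-7 values on chromosomes 9 and 16 rest almost wholly on reads that other let-7 genes share and do not measure the gene of the cluster. In the KO-named table only 264 of the 52105 reads given to Mirlet7c-1 and 55 of the 32762 given to Mirlet7a-2 had a single place. On chromosome 17 the intervals of Mirlet7e (0.05 to 0.16) and Mir125a (0.05 to 0.09) overlapped. Other miRNA genes of the Hox clusters were far below the Mir10 genes. Mir196a-1 was at 6.19 and 5.38 RPM, Mir196a-2 at 12.1 and 9.44 RPM, Mir615 at 1.23 and 1.29 RPM and Mir196b at 2.59 and 1.15 RPM. Mir196b had the highest ratio among all hairpins with at least 200 reads, with 141 reads against 72 (log2 1.17, 0.76 to 1.61).

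Nearly all reads came from the 5p arm, except in the Mir125b genes. The 5p share was 99.95% and 99.96% in Mir10a, 99.98% in both tables in Mir10b and above 99% in Mir99a, Mir99b, Mir100 and Mir125a, lowest in Mir99a at 99.09% and 99.29%. Mir10b, with 1071237 and 986673 reads in all, gave 164 and 158 reads of its 3p arm, or 0.0153% (0.0131 to 0.0178) and 0.0160% (0.0136 to 0.0187). For Mir10a there were 17 and 15 such reads, for Mir100 42 and 39, for Mir99a 218 and 207, for Mir99b 215 and 277 and for Mir125a 173 and 159.

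The Mir125b genes gave 19.6% and 18.01% of their reads from the 3p arms. The 3p sequences, unlike the 5p sequences, tell the genes apart, and they carry different seeds (capitals).
miR-125b-1-3p: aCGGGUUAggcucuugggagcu
miR-125b-2-3p: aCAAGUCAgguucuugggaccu
Mir125b-1 had 2625 and 2272 reads of its 3p arm and Mir125b-2 had 3203 and 3112. The between-table ratio was 1.33 (1.26 to 1.41) for the Mir125b-1 3p arm and 1.19 (1.13 to 1.25) for the Mir125b-2 3p arm, beside 1.13 for the 5p reads split between them. For these exact reads the 3p intervals of the pair narrowly did not overlap, with limits of 1.260 and 1.248 facing each other. Reads with unencoded bases at the 3′ end, described below, were left out of them. Such reads were 1463 and 1390 on the Mir125b-1 3p arm and 2208 and 1937 on the Mir125b-2 3p arm. Whether the intervals stay apart with these reads included was not tested. The closest measure of either gene alone, its 3p arm, was thus higher in the KO-named table for each of them on the scale of all reads.

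Mir10a, Mir10b and Mir125b had many 5p reads that start 1 base after the RefSeq start, and the other genes had few. Such reads were 25.2% (24.8 to 25.7) and 24.7% (24.3 to 25.2) of the 5p reads of Mir10a. In Mir10b they were 13.0% (12.9 to 13.1) and 12.4% (12.4 to 12.5). The share of Mir10a exceeded that of Mir10b by 12.2 percentage points (11.8 to 12.7) and by 12.3 (11.8 to 12.8). The mature 5p sequences of the genes differ at 1 base only. Their hairpins, annotated with 110 nt in Mir10a and 68 nt in Mir10b, differ more widely. Between the tables, the share of Mir10a differed by 0.50 points (-0.14 to 1.13) and that of Mir10b by 0.56 points (0.46 to 0.65). The gap between the genes was thus far larger than that between the tables.

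Reads that start 1 base before the RefSeq start were also unequal. They were 0.774% and 0.654% of the 5p reads of Mir10a (290 reads in the KO-named table), beside 0.0019% and 0.0033% in Mir10b. In Mir125b the start 1 base later held 15.2% and 16.4% of the 5p reads, beside 0.290% and 0.267% in Mir125a, whose first bases, seed included, are the same. The share of Mir125b was lower in the KO-named table by 1.19 points (0.54 to 1.83). In Mir100 the later start held 0.489% and 0.608%, in Mir99b 0.505% and 0.622% and in Mir99a 0.151% and 0.248%. Mir99a had instead 1.75% and 1.06% of its reads at 3 bases after the start. The shifted starts give the Mir10 reads the seed CCCUGUA and the Mir125b reads the seed CCUGAGA, and 0 of the 1679 RefSeq mature sequences hold either of them.

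**Figure D2:**
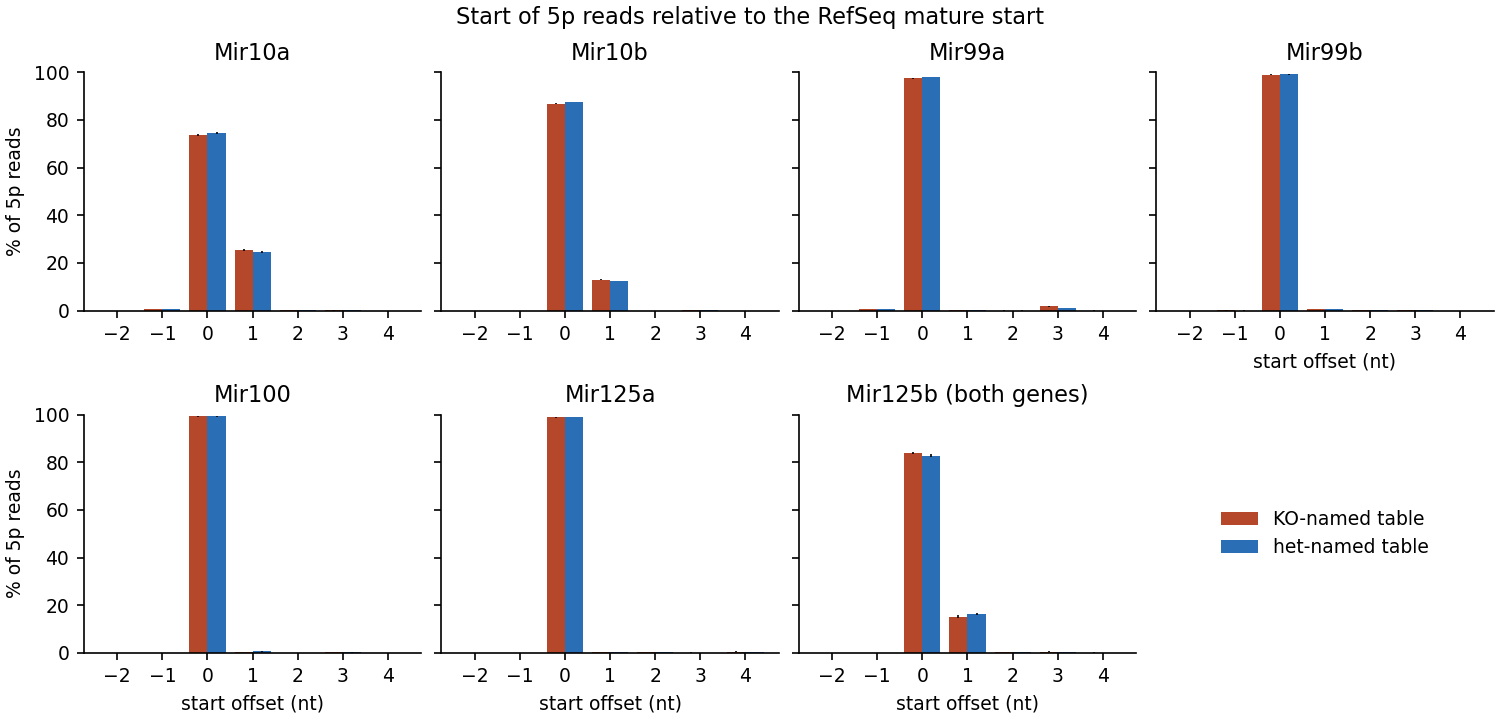
Share of 5p reads (vertical axis, percent) by the offset of their start from the RefSeq mature start in nt (horizontal axis, 0 as annotated, 1 is 1 base later), for each gene and table, with counting intervals. Mir125b-1 and Mir125b-2 are shown together. The bars at 1 are tall in Mir10a (25.2% and 24.7%), Mir10b (13.0% and 12.4%) and Mir125b (15.2% and 16.4%) and close to 0 elsewhere.

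Among the rare 3p reads, starts also varied. Mir10b 3p reads were spread over 3 neighbouring starts, with 60, 42 and 59 of 164 reads in the KO-named table at 1 base before, at and 1 base after the RefSeq start. Of the Mir100 3p reads, 36 of 42 and 35 of 39 started 1 base later. Mir125b-2 3p reads started 2 bases earlier in 15.5% and 12.1% and 3 bases earlier in 6.28% and 4.95%, while 97.6% and 97.3% of Mir125b-1 3p reads started at the RefSeq base. The 3p arms of the Mir125b genes thus differ in how uniform their starts are.

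Because the mature 5p sequence of Mir10a differs from that of the far more abundant Mir10b at base 12 only, misread Mir10b reads could be counted as Mir10a. The 22-nt form of Mir10a had 2.70% and 2.69% of the reads of the same form of Mir10b. The other bases that could stand at base 12 had at most 0.0491% and 0.0474%. The same A-to-T change at 5 other positions of the form had 0.0059% to 0.114% and 0.0053% to 0.125%. At the highest of these rates 927 and 967 reads would arise, which is 4.22% and 4.66% of the reads of the Mir10a form. Most reads counted as Mir10a were thus beyond that level. For Mir99a and Mir100, which differ at base 16, the same reading gave 14 and 6 reads, or 0.142% and 0.0657% of the Mir99a form.

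Where a Mir10 read starts and where it ends went together. Among Mir10b reads with the RefSeq start, 87.5% and 89.5% ended 1 base before the RefSeq end. Among those that start 1 base later, only 35.8% and 39.4% ended there, and 38.4% and 39.5% ended 1 base after the RefSeq end. Of Mir10a reads with the RefSeq start 79.4% and 81.3% ended 1 base before the end, and of those with the later start 34.5% and 39.1%. Shifted reads of both genes thus more often ended further downstream. In Mir125b the later start went with a more uniform end. Of its shifted reads 94.1% and 94.0% ended at the RefSeq end, beside 60.8% and 55.6% of its reads with the RefSeq start.

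**Figure D3:**
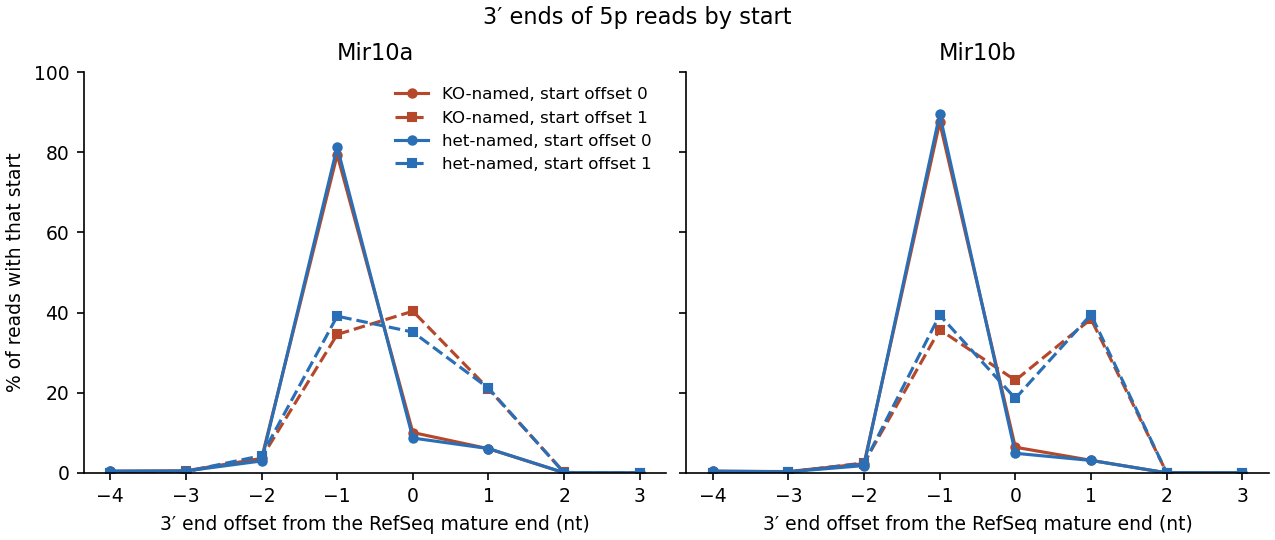
Share of 5p reads of Mir10a and Mir10b (vertical axis, percent of reads with that start) by the offset of the 3′ end from the RefSeq mature end in nt (horizontal axis). Solid lines are reads with the RefSeq start and dashed lines reads that start 1 base later, for the KO-named (red) and het-named (blue) table. Reads with the RefSeq start peak at -1 (87.5% and 89.5% in Mir10b), whereas shifted reads spread over -1, 0 and 1.

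The 5p reads of the Mir10 genes were mostly of 22 nt, while Mir99/100 reads were shorter and Mir125a reads had 2 peaks. Reads of 22 nt were 79.0% and 80.6% of Mir10b and 69.0% and 69.4% of Mir10a. The mean length was 22.07 nt and 22.06 nt in Mir10b and 22.07 and 22.05 nt in Mir10a. It was 21.11 and 21.13 nt in Mir99b, 21.32 nt in both tables in Mir100 and 21.30 and 21.24 nt in Mir125b. Over all hairpins it was 22.03 and 22.01 nt. Mir125a had 49.7% and 50.7% of its reads at 22 nt, few at 23 nt (4.73% in both tables) and again 19.5% and 15.7% at 24 nt, the RefSeq length.

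By the share at a single length, Mir99a differed most between the tables. By mean length it was Mir125a, at 22.103 and 21.995 nt, beside 21.253 and 21.181 nt in Mir99a. Of the Mir99a 5p reads, 38.3% (37.7 to 39.0) and 49.7% (49.1 to 50.3) were of 21 nt, and 41.8% and 32.1% were of 22 nt. Its level in reads of 21 nt thus had a ratio of 0.732 (0.713 to 0.751) and that in reads of 22 nt a ratio of 1.24 (1.20 to 1.27). A summed ratio near 1 for Mir99a is made of length forms that differ in opposite directions. In Mir100 the reads of 21 nt were 36.3% and 42.1%, and those of 22 nt 48.3% and 45.1%. Among reads of all hairpins, 10.3% and 11.6% were of 19 to 20 nt. The part of the different share of short reads in the tables was not tested.

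**Figure D4:**
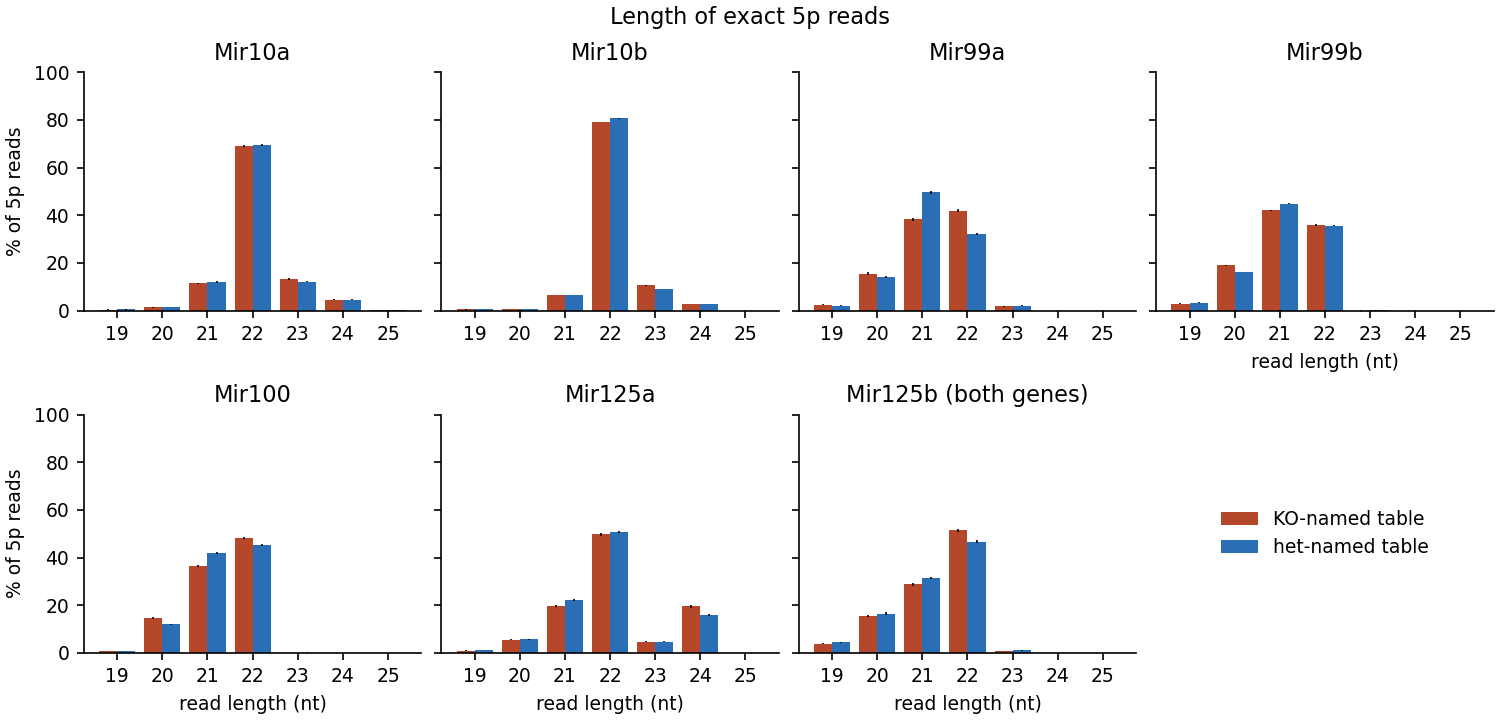
Share of exact 5p reads (vertical axis, percent) by read length in nt (horizontal axis) for each gene and table, with counting intervals. Mir125b-1 and Mir125b-2 are shown together. Mir10a and Mir10b peak at 22 nt, Mir125a has peaks at 22 and 24 nt, and in Mir99a the highest bar is 22 nt in the KO-named (41.8%) and 21 nt in the het-named table (49.7%).

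The 3′ ends also carried bases that the hairpin does not encode. Terminal nucleotidyl transferases are known to add such bases after the hairpin is cut. Reads with 1 to 3 such bases were counted apart from the exact reads above, and an added base that equals the next base of the hairpin counts as encoded. Mir10b had the lowest share of the 5p arms, with 3.74% (3.70 to 3.77) and 3.62% (3.58 to 3.65). In Mir10a the share was 6.67% and 6.75%, in Mir99a 5.36% and 5.73%, in Mir125a 5.98% and 6.16% and in Mir100 8.46% and 9.97%. Mir99b had 13.1% and 13.3% and Mir125b 19.1% and 20.4%. The shares thus ranged from 3.62% to 20.4% among the genes, while no gene differed by as much as 2 points between the tables.

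The 3p arms of Mir10b, Mir99b, Mir125b-1 and Mir125b-2 were tailed more often than their 5p arms. In Mir99b 3p the KO-named table had 215 tailed beside 215 exact reads, and the het-named 254 beside 277, or 47.8% tailed (43.5 to 52.2). In Mir125b-1 3p the share was 35.8% and 37.98%, and in Mir125b-2 3p 42.4% and 39.6%. The rarer 3p arms had 14.1% and 18.1% in Mir10b, 8.02% and 6.76% in Mir99a and 3.89% and 5.92% in Mir125a. In Mir99a and Mir125a the intervals of the 3p and 5p arms overlapped in both tables.

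The added bases that could be seen differed with the arm. An added base that equals the next hairpin base counts as encoded, so which additions show depends on the sequence of each gene. Of single added bases on 5p reads, A was 89.6% and 89.3% in Mir10a and 79.6% and 78.6% in Mir10b. It was 74.0% and 78.6% in Mir99a, 67.4% and 67.9% in Mir100, 53.4% and 58.2% in Mir125a and 78.6% and 75.6% in Mir125b. The exception was Mir99b 5p, in which U was 60.2% and 64.0% and A 39.2% and 35.5%. After the 20-nt form the next hairpin base is C in Mir99b but U in Mir99a and Mir100. A U added to that form thus shows as a tail in Mir99b but not in Mir99a or Mir100. On the 3p arms U was the main added base, with 94.5% and 95.03% in Mir125b-2, 89.3% and 88.8% in Mir125b-1, 66.1% and 65.7% in Mir99b and 96.0% and 91.2% in Mir10b. In Mir125a 3p it was 4 of 5 and 6 of 7 such reads. Here the exception was Mir99a 3p, with A in 10 of 14 and 9 of 13 such reads. In Mir99a 3p a U added to the 22-nt form counts as the exact 23-nt form. In Mir10b 3p an A added to reads that end 1 base before the RefSeq end counts as encoded. The part of this counting rule in the contrast between the arms was not tested.

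**Figure D5:**
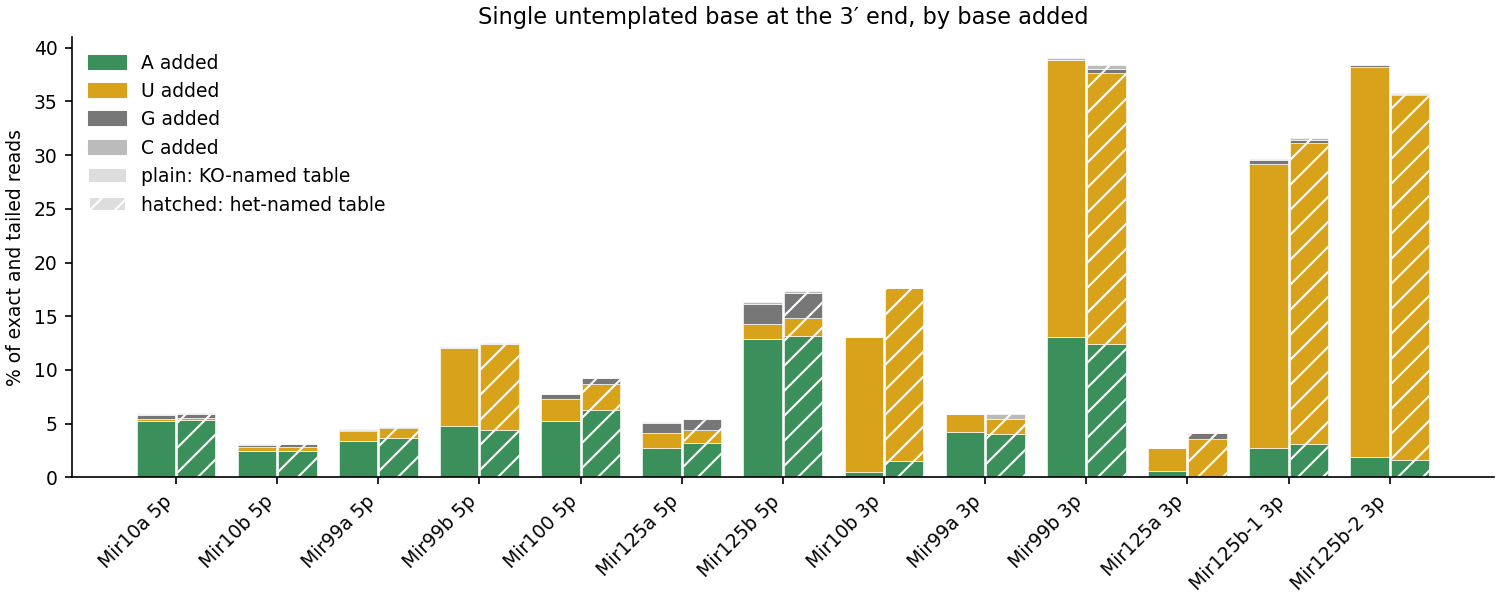
Share of reads with a single base added at the 3′ end (vertical axis, percent of exact and tailed reads), by arm of each gene (horizontal axis) and by the base added (colour), plain bars for the KO-named and hatched bars for the het-named table. Arms with under 200 exact reads in the tables together are left out. Green (A) fills most of the 5p bars except that of Mir99b, and yellow (U) most of the 3p bars except that of Mir99a.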

How the data were processed

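Per the labels, 20 µg of Trizol-extracted total RNA was run on a 15% gel, and its RNA of 15 to 40 nt went into directional TruSeq libraries. The deposited tables pair each sequence with its unscaled read count. No source used here gives the trimming and filtering tools. Reads of 19 to 25 nt were matched with 0 mismatches, in sense, to the GENCODE M21 hairpins, and a read with several hairpin places counted by 1 over its places. RPM are reads per 1000000 of the table, and log2 ratios have 0.5 reads added. Hairpins needed 200 reads in the tables together. A read belongs to an arm if it starts within 5 nt of the RefSeq mature start. Tails are 1 to 3 unencoded bases after at least 18 encoded ones, with starts within 2 nt. Shares have Clopper-Pearson and ratios conditional binomial intervals at 95%. Differences of shares have a normal approximation. Placement and intervals were tested on simulated data. The genes named are the 8 members, the other miRNA genes of their clusters, hairpins next to a described rank and the listed markers. Members and lists were chosen with earlier results of these data known. Alternatives were other scales, lengths, places, minimums and tails. The tools were scipy 1.17.1, matplotlib 3.10.9, pandas 2.3.3 and numpy 2.4.6 under Python 3.11.15.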

Additional observations from a re-analysis of the deposited data

How the results depend on the processing

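No paired analysis was possible because each table is 1 library. Paired values give the KO-named table first. The log2 ratio of the summed genes was 0.23. It was -0.016 on the scale of hairpin reads, 0.24 with reads of 21 to 23 nt, 0.22 with tailed reads and 0.21 with distinct sequences. Genes above 0 numbered 6 of 8, and 2 on the scale of hairpin reads. With reads of 21 to 23 nt Mir100 was at -0.04, and with tailed reads at -0.02. No gene reached 1 in size under any alternative. The median of all hairpins was -0.02 at a minimum of 50 reads and 0.18 at 1000. The Mir125b 3p share was 20.4% (KO-named) and 19.02% (het-named) with 21 to 23 nt and 50% and 50.9% of distinct sequences. The start difference between Mir10a and Mir10b held within its interval under other lengths and single places. Over distinct sequences seen at least 10 times, of which each gene had 16 to 23, it was -2.66 and 2.68 points, where abundance carries no weight. The mean 5p length of the set was 21.94 nt (KO-named) and 21.88 nt (het-named), and 21.99 and 21.94 nt with tails. Tailed reads were 5.40% and 5.89%, and 4.70% and 5.27% with tails of 1 nt only. Cause was not tested for any of these shifts.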

Other observations

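Substituted reads were looked up after the substitution counts had been seen, so the following values are a description. The change C5U (base 5 from the 5′ end) was found in 1.66% (1.496 to 1.83) of the Mir99a 5p reads of 20 to 24 nt of the KO-named table and, as second value throughout, in 1.15% (1.03 to 1.28) of those of the het-named table, beside 0.519% and 0.363% in Mir100 and 0.325% and 0.184% in Mir99b. It was most frequent in the 21-nt form of Mir99a, at 3.40% and 1.96%, and lies within the seed (capital T). Other changes were frequent in that form too, with C13U at 1.25% and 0.985%, C4U at 1.15% and 0.492% and G6U at 0.679% and 0.361% of its exact reads. Its substitutions summed to 9.40% and 6.59%, beside 6.31% and 6.53% in Mir125b and 2.02% to 2.88% in the other genes. These sums, and the median given below, leave out the first base and the last bases of each form. Changes at the last base could be frequent, as with U22A in Mir125a (3.32% and 4.36%) and A22G in Mir125b (3.44% and 4.81%). These reads are the same as 21-nt encoded reads with 1 added base, and were already counted above as tailed reads. A changed last base and an added base cannot be told apart here.
Mir99a, C5U: aaccTgtagatccgatcttgt
In Mir125b the change C11U was found in 1.57% (1.40 to 1.75) and 1.49% (1.32 to 1.67), beside 0.335% and 0.195% in Mir125a, which has the same bases around it. The 22-nt form carried most of it, at 2.14% and 2.27%. The 21-nt form was at 0.321% and 0.307% and the 20-nt form at 0.849% and 0.434%, beside 0.674% and 0.234% in the 20-nt form of Mir125a.
Mir125b, C11U: tccctgagacTctaacttgtga
The median substitution was at 0.0259% to 0.0416% over the genes, in the form with most reads in the tables together (21 nt for Mir99a). The changed forms match 0 GENCODE M21 transcripts. Matches elsewhere in the genome were not looked for.

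In some of the genes the ratio between the tables differed with the last base of the exact 5p reads, also seen only after the lengths had been described. Mir10b reads that end in G had a between-table ratio (het-named as denominator) of 1.61 (1.60 to 1.63), and those that end in U 1.22. In Mir10a the ratios were 1.45 and 1.22, in Mir99a 1.18 and 0.729, in Mir100 1.11 and 0.865 and in Mir99b 0.815 and 0.636. The Mir125 genes did not show this order, with 0.956 for G and 1.03 for U in Mir125a and 0.993 and 1.03 in Mir125b. Their reads that ended in A had ratios of 1.31 in Mir125a and 1.20 in Mir125b, where A was the main end (65.9% and 61.9%). Over all hairpins reads that end in G and in U had ratios of 1.19 each. Last base and length are tied within each gene and cannot be told apart here.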
